A study of Mus musculus with 4 samples.

Results

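The muscarinic and nicotinic acetylcholine receptor genes Chrm1, Chrm2, Chrm3, Chrm4, Chrna3, Chrna4, Chrna5, Chrna7 and Chrnb2 were followed in mouse brain septal tissue. The 9 genes were selected by symbol, with no threshold on their values, from the 15409 gene rows that every library listed. Septa of TCRb-/- mice, whose T cell receptor beta chain is deleted, were set against septa of wild-type (WT) mice. Both genotypes had gone through 3 daily restraints of 30 min each, with tissue taken 1.5 h after the final one, so no unstressed mice entered the comparison. Each genotype had 2 libraries, replicate 1 from experiment 1 and replicate 2 from experiment 2, and each library pooled the tissue of 4 to 5 mice. The sources used here give no strain background, sex or age, and TCRb-/- mice lack the receptor in the whole body.

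Acetylcholine acts through both receptor families. Muscarinic receptors are G protein coupled: Chrm1 and Chrm3 encode M1 and M3, which couple to Gq and phospholipase C, while Chrm2 and Chrm4 encode M2 and M4, which couple to Gi/o and lower cyclic AMP. Nicotinic receptors are ligand-gated cation channels built of subunits. The alpha4 and beta2 subunits (Chrna4, Chrnb2) form the main high-affinity nicotine receptor of the brain, alpha7 (Chrna7) forms channels by itself, alpha5 (Chrna5) is an accessory subunit, and alpha3 (Chrna3) pairs with beta4 (Chrnb4) in the medial habenula and in autonomic ganglia. The medial septum holds cholinergic neurons that project to the hippocampus. M1 is best known from cortical, hippocampal and striatal neurons, M4 from striatal projection neurons, and M2 as an autoreceptor of cholinergic neurons.

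The libraries held 19988137 to 26210790 reads, and abundance is given as CPM, reads scaled to a common library total. Trbc2, the constant segment of the deleted chain, had 0 reads in both TCRb-/- libraries and 169 and 86 reads in WT replicates 1 and 2. All 12 listed septum markers of 13 were present in every library, with summed levels of 535 to 627 CPM. Markers of neighbouring regions were present too. The 16 striatum markers summed to 6801 and 1775 CPM in TCRb-/- replicates 1 and 2 and to 6105 and 3738 CPM in WT, and 15 of the 16 were lowest in TCRb-/- replicate 2. That library stands apart, and differences of several members are also given without it. Those genotype fits have no block, so they set TCRb-/- replicate 1 of experiment 1 against WT pools of both experiments. In bulk tissue, fewer cells of a type and less RNA per cell cannot be told apart.

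The genes lie on 7 chromosomes in GRCm38. Chrna5 (54980880 to 55007779, plus strand) and Chrna3 (55010111 to 55026562, minus strand) are neighbours on chromosome 9, 2.33 kb apart and end to end, and Chrnb4 follows Chrna3 after 1.59 kb. Chrm2 (chromosome 6, 36388084 to 36528414) lies 5.02 Mb from Trbc2. For Chrm2, the genotype therefore cannot be told apart from flanking DNA of another strain that may have been carried with the deleted allele. Chrm4 (chromosome 2, 91927249 to 91928688) is annotated in GENCODE M21 as 1 exon of 1440 bases that is nearly all coding. Exons of Chrnb2 (chromosome 3, 89746195 to 89764632) share 16.3% of their bases with Adar on the other strand. No source used here gives the strand setting of the counting, so Chrnb2 reads are uncertain to that extent.

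Promoter sequence is shown for 3 members: Chrm4, whose highest level was the largest multiple of its lowest among the muscarinic genes, and the neighbours Chrna3 and Chrna5, whose differences between the experiments had opposite signs. Each is the 250 bases before the RefSeq start (GRCm38.p6), written on the strand of the gene, with GC boxes (GGGCGG on either strand, overlapping matches included) in capitals.
Chrm4, chr2:91921939-91922188, plus strand: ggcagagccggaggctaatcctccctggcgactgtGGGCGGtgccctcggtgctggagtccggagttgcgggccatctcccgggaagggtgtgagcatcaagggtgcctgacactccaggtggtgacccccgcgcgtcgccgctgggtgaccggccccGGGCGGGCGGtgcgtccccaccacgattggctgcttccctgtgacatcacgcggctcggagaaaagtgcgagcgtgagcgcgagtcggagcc
Chrna3, chr9:55026563-55026812, minus strand: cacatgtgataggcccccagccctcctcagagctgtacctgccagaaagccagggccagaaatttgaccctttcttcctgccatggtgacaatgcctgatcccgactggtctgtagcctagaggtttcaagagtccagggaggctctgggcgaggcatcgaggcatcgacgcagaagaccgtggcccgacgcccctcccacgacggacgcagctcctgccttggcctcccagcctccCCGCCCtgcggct
Chrna5, chr9:54980630-54980879, plus strand, the first of 2 listed starts: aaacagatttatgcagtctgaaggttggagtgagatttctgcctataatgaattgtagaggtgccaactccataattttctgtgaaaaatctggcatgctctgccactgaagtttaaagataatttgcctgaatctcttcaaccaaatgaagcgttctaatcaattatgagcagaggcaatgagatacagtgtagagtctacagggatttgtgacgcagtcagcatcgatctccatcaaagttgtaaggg
The Chrm4 window held 3 GC boxes, of which the last 2 overlap, and the Chrna3 window held 1. The Chrna5 window held 0 and was 40.0% G and C, against 70.0% for Chrm4 and 63.2% for Chrna3. The window before the other Chrna5 start (54981238 to 54981487), which is not printed because 22 of its bases are annotated as UTR, held 4 GC boxes and was 65.2% G and C. A GC box was present in 32.7% of the 32851 promoter windows of that length, whose median G and C content was 52.4%. These matches describe letters and are not shown to be binding sites. Of the members, 8 matched a RefSeq promoter entry, and Chrm1 did not.

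Levels between genes were compared per kilobase of annotated exon. Chrm1 was the highest on average, at 11.9 ± 6.38 CPM per kb (SD, n = 4 libraries). Next came Chrna4 at 5.24 ± 0.768, Chrm2 at 3.68 ± 0.773, Chrnb2 at 3.49 ± 0.503 and Chrm4 at 3.18 ± 2.06 CPM per kb. Chrna7 at 0.893 ± 0.260, Chrm3 at 0.787 ± 0.115, Chrna3 at 0.389 ± 0.152 and Chrna5 at 0.266 ± 0.222 CPM per kb were lower. Neighbours in this order had overlapping ranges over the 4 libraries, except Chrm3 and Chrna3, whose ranges did not overlap. The place of Chrm4 depends on its short gene model. The annotation used for the counting is not named, so it is unknown whether reads outside that exon were counted on Chrm4.

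The order was not the same in every library. Per kilobase, the Chrm1 level was 5.01 and 0.997 times the Chrm2 level in TCRb-/- replicates 1 and 2, and 5.19 and 2.67 times in WT replicates 1 and 2. M1 transcript thus led M2 in 3 of the 4 libraries and was level with it in TCRb-/- replicate 2. The 4 muscarinic genes together had 151 and 65.9 CPM in the TCRb-/- pools of experiments 1 and 2, and 139 and 81.0 CPM in the WT pools. The 5 nicotinic genes together had 65.3, 66.2, 58.8 and 59.4 CPM in the same order. The muscarinic sum, most of which was Chrm1 in experiment 1, was lower in experiment 2 in both genotypes, although Chrm2 had 29.1 against 21.6 CPM in TCRb-/- and 19.0 against 19.6 CPM in WT. The nicotinic sums stayed within 58.8 to 66.2 CPM, with members that differed in both directions.

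**Figure D1:**
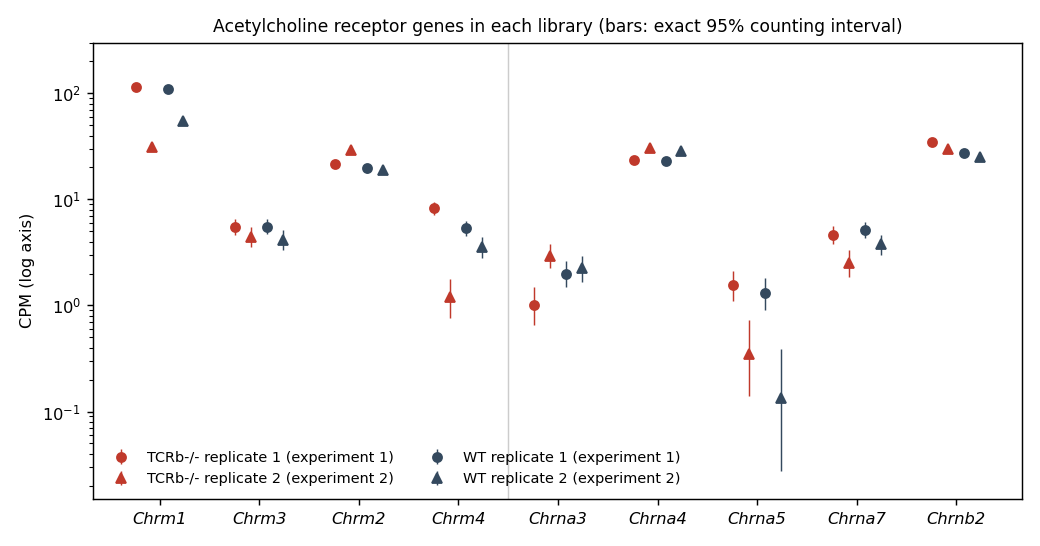
CPM of the 9 receptor genes (log axis) in each library, with TCRb-/- in red, WT in dark blue, circles for experiment 1 and triangles for experiment 2; bars are exact 95% counting intervals. For Chrm1, Chrm3, Chrm4, Chrna5 and Chrna7 both triangles lie below both circles, Chrm1 at 31.1 and 54.3 CPM against 116 and 109 CPM.

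The first comparison asked whether receptor transcripts differed between TCRb-/- and WT septum after stress. None of the 8 members that were abundant enough to test passed an adjusted p of 0.05 in limma, a linear model fitted to log2(CPM + 1) of all genes; 0% of the 13912 genes tested did. With the experiment as a block, 0 of the 8 passed, against 2 of 13912 genes (0.0144%), Trbc2 and the choroid plexus gene Ttr. Without the block even Trbc2, from the deleted chain, did not pass (log2 difference -2.59, unadjusted p 1.57e-04 in limma). The absence of calls in that fit therefore does not show that the genotypes are alike. At an unadjusted p under 0.05, limma called 0 of 8 members without the block, where the share of all genes was 0.309%. With the block it called 2 of 8, Chrm2 and Chrnb2, where the share was 5.64%. The same 2 genes were the members whose TCRb-/- libraries both lay above both WT libraries, which held for 9.76% of all genes. No member had both TCRb-/- libraries below both WT libraries, which held for 8.04%. The median difference over the 8 members was -0.05 on the log2 scale, against 0.00069 over all genes tested.

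Chrm2, the M2 gene, had 21.6 and 29.1 CPM in the TCRb-/- pools of experiments 1 and 2, and 19.6 and 19.0 CPM in the WT pools. The lowest TCRb-/- library was close to the highest WT library, and most of the gap came from experiment 2. Within experiment 1 the ratio was 1.10 (exact counting interval 0.974 to 1.25) and within experiment 2 it was 1.54 (1.35 to 1.74). The log2 difference was 0.36 (SE 0.19, 95% interval -0.12 to 0.85), with an adjusted p of 1.00 in limma. With the block the difference had an interval of 0.06 to 0.67, with an unadjusted p of 0.0248 and an adjusted p of 0.848 in limma. Without TCRb-/- replicate 2 the difference was 0.15.

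Chrnb2, the beta2 subunit, had 34.9 and 29.7 CPM in the TCRb-/- pools of experiments 1 and 2, and 27.5 and 25.0 CPM in the WT pools. It was higher in TCRb-/- by a like amount in both experiments, with ratios of 1.27 (counting interval 1.15 to 1.40) and 1.19 (1.06 to 1.34). The log2 difference was 0.29 (SE 0.16, interval -0.11 to 0.68, limma adjusted p 1.00). It was 0.17 without TCRb-/- replicate 1 and 0.40 without TCRb-/- replicate 2. With the block and all libraries the interval was 0.07 to 0.51, at a limma adjusted p of 0.848. Its partner subunit Chrna4 had 23.3 and 30.8 CPM in TCRb-/- and 22.9 and 28.3 CPM in WT. The genotypes overlapped for Chrna4, with a log2 difference of 0.07 (interval -0.44 to 0.58), and of -0.12 without TCRb-/- replicate 2. That omission sets 23.3 CPM in experiment 1 against the WT pools of both experiments.

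The members with the widest spread overlapped between genotypes. Chrm1, the M1 gene, had 116 CPM in TCRb-/- replicate 1 and 31.1 CPM in TCRb-/- replicate 2, against 109 and 54.3 CPM for WT. The WT libraries lay inside the TCRb-/- range. The log2 difference was -0.35, with an interval from -1.996 to 1.298. It was 0.58 without TCRb-/- replicate 2, against 0.09 within experiment 1. Chrm4, the M4 gene, had 8.22 and 1.20 CPM in TCRb-/- and 5.34 and 3.53 CPM in WT. Its TCRb-/- libraries were the highest and the lowest of the 4. The log2 difference was -0.25, with an interval from -1.95 to 1.44. It was 0.78 without TCRb-/- replicate 2, against 0.54 within experiment 1. With the experiment as a block the intervals were narrower, from -0.75 to 0.05 for Chrm1 and from -1.01 to 0.51 for Chrm4, and adjusted p-values in limma were 0.848 and 0.949.

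Chrm3, the M3 gene, had 5.53 and 4.45 CPM in TCRb-/- and 5.53 and 4.16 CPM in WT. The genotypes overlapped, with a difference of 0.04 (interval -0.52 to 0.60). Chrna7, the alpha7 subunit, had 4.64 and 2.50 CPM in the TCRb-/- pools of experiments 1 and 2, and 5.19 and 3.76 CPM in the WT pools. It was lower in TCRb-/- within each experiment, as 24.5% of all genes were, but the genotypes overlapped. The Chrna7 difference of -0.29 had an interval of -1.05 to 0.47, and it was 0.055 without TCRb-/- replicate 2. Chrm2, Chrna4 and Chrnb2 were higher in TCRb-/- within each experiment, as 27% of all genes were. Chrna3 had 1.02 and 2.95 CPM in TCRb-/- and 1.98 and 2.24 CPM in WT, with a difference of -0.14 (interval -1.04 to 0.76). The Chrna3 difference was -0.62 without TCRb-/- replicate 2. Chrna5 averaged 0.832 CPM, below the 1 CPM needed for the test, and was compared only without that filter, at a difference of 0.20 (interval -0.92 to 1.31, limma adjusted p 1.00).

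**Figure D2:**
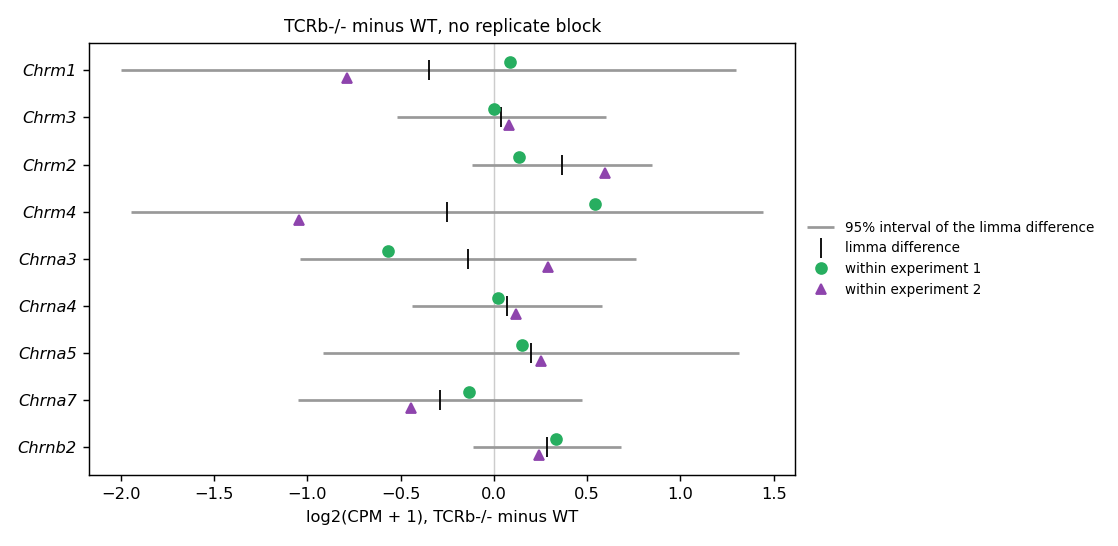
Difference of log2(CPM + 1), TCRb-/- minus WT, for each receptor gene: circles within experiment 1, triangles within experiment 2, black ticks the limma difference and grey lines its 95% interval without a block (for Chrna5, without the filter on low genes). All intervals cross 0, and those of Chrm1 (-1.996 to 1.298) and Chrm4 (-1.95 to 1.44) are the widest. With the block, not drawn, those of Chrm2 (0.06 to 0.67) and Chrnb2 (0.07 to 0.51) lie above 0.

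The second comparison set experiment 2 against experiment 1, with both genotypes on each side, because the labels name the experiment as a batch. It shows how far these transcripts differed between pools of the same genotype. In limma, 2 of the 8 members tested fell, Chrm1 and Chrm4, against 14.7% of all genes. One of the 8, Chrna4, rose, against 8.95%. With genotype as a further term the same 3 passed. Of all genes called, 37.8% were higher in experiment 2, and 50.6% after quantile normalization. Both libraries of experiment 2 lay below both of experiment 1 for 4 of 8 members (37.2% of all genes), and above for 2 of 8 (30.1%). The median difference of the 8 members was -0.24, against -0.03 over all genes tested. These shares are not far from those of all genes, so the count of members is not a result about the receptors.

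Chrm1 fell in experiment 2 by 1.43 on the log2 scale (SE 0.21, interval -1.92 to -0.93, limma adjusted p 0.00669). Read as ratios of experiment 1 to experiment 2, the fall was 3.72-fold in TCRb-/- (counting interval 3.41 to 4.06) and 2.00-fold in WT (1.87 to 2.15). Both genotypes moved the same way, and the pool of TCRb-/- replicate 2 was the lower. Chrm4 fell by 1.28 (SE 0.34, interval -2.05 to -0.50, adjusted p 0.0316). Its fall was 6.84-fold in TCRb-/- (4.47 to 10.9), from 202 to 24 reads, and 1.51-fold in WT (1.14 to 2.02), from 140 to 79 reads. The call for Chrm4 did not hold without TCRb-/- replicate 1 (limma adjusted p 0.155) or without WT replicate 1 (0.0571), whereas it held without TCRb-/- replicate 2, at a difference of -0.75. Chrm1 remained called without any 1 library, between -1.82 and -1.03.

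The other muscarinic members did not pass. Chrm3 differed by -0.30 (interval -0.65 to 0.05, limma adjusted p 0.179), with both libraries of experiment 2 below both of experiment 1. Chrm2 differed by 0.19 (interval -0.24 to 0.61, adjusted p 0.483). It was higher in experiment 2 in TCRb-/- (1.35-fold, counting interval 1.20 to 1.52) and level in WT (0.969, 0.850 to 1.10). Without TCRb-/- replicate 2 the Chrm2 difference was -0.11, and without WT replicate 2 it was 0.48. In each of these fits 1 pool stands for experiment 2, so genotype and experiment are partly mixed.

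Among nicotinic subunits, Chrna4 rose in experiment 2 by 0.34 on the log2 scale (SE 0.10, interval 0.12 to 0.56, limma adjusted p 0.0390). The ratios were 1.32 in TCRb-/- and 1.23 in WT, and both libraries of experiment 2 lay above both of experiment 1. Its call was lost without TCRb-/- replicate 1, TCRb-/- replicate 2 or WT replicate 1, with adjusted p-values of 0.109, 0.183 and 0.122. Chrnb2 differed by -0.18 (interval -0.50 to 0.14, adjusted p 0.364). Chrna7 differed by -0.53 (interval -0.98 to -0.08, limma adjusted p 0.0829). The Chrna7 difference was -0.75 without WT replicate 2 and -0.31 without TCRb-/- replicate 2, fits in which genotype and experiment are partly mixed.

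The neighbours on chromosome 9 had differences of opposite sign. Chrna5 had 38 and 7 reads in TCRb-/- replicates 1 and 2 and 34 and 3 reads in WT, or 1.55, 0.350, 1.297 and 0.134 CPM. Both libraries of experiment 2 were far below both of experiment 1. The ratio of experiment 2 to experiment 1 was 0.227 in TCRb-/- (counting interval 0.0854 to 0.514) and 0.103 in WT (0.0203 to 0.329). Without the filter on low genes, limma gave a difference of -0.97 (SE 0.18, adjusted p 0.0112), where 13.1% of 15409 genes were called lower. Chrna3 differed by 0.54 the other way (interval -0.00 to 1.09, adjusted p 0.130). Its ratio was 2.90 in TCRb-/- (1.79 to 4.84) and 1.13 in WT (0.749 to 1.70), so its size rests on the TCRb-/- pools. The Chrna3 difference was 0.40 without TCRb-/- replicate 2 and 0.26 without TCRb-/- replicate 1. Chrnb4, the beta4 subunit, rose with 0.569 and 2.90 CPM in the TCRb-/- pools of experiments 1 and 2, and 0.839 and 1.88 CPM in the WT pools, a difference of 0.98 (SE 0.22, adjusted p 0.0193). Its call was lost when TCRb-/- replicate 1, TCRb-/- replicate 2 (0.76, adjusted p 0.0617) or WT replicate 1 was left out.

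**Figure D3:**
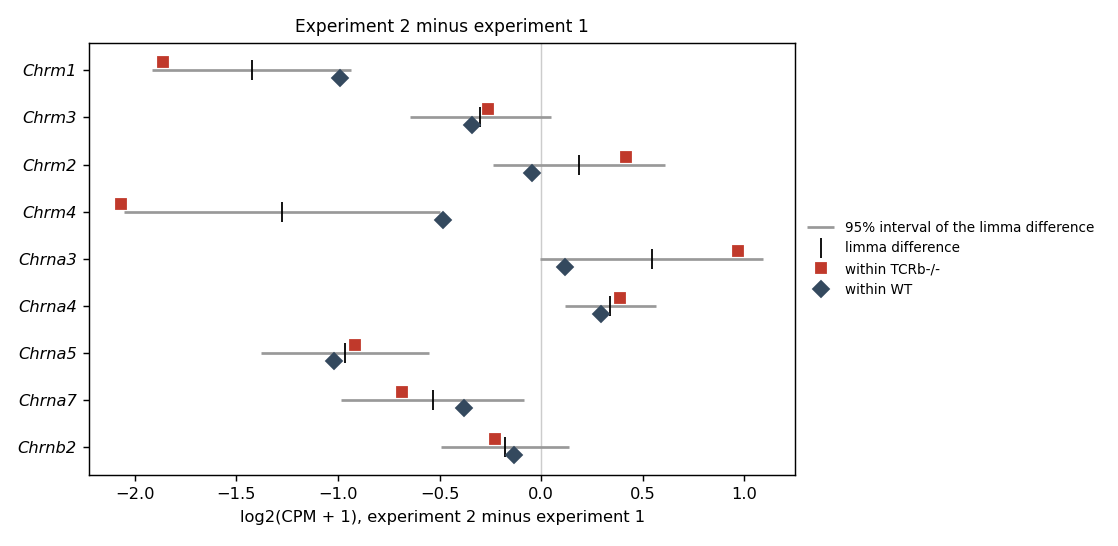
Difference of log2(CPM + 1), experiment 2 minus experiment 1, for each receptor gene: squares within TCRb-/-, diamonds within WT, black ticks the limma difference and grey lines its 95% interval (for Chrna5, without the filter on low genes). The intervals of Chrm1, Chrm4, Chrna5 and Chrna7 lie below 0 and that of Chrna4 above; Chrna7 did not pass after adjustment.

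Of 12 further acetylcholine receptor genes looked for, 7 were listed: Chrm5, Chrna1, Chrna2, Chrna9, Chrna10, Chrnb4 and Chrne. All 7 were low, with no library above 2.90 CPM. Apart from Chrnb4, the 3 that could be tested (Chrm5, Chrna2 and Chrna10) passed in neither comparison. Chrm5, the M5 gene, had 1.20 to 1.68 CPM. Chrna1, Chrna9 and Chrne averaged under 1 CPM and were not tested, and 39.0% of the exon bases of Chrna10 overlap Art1 on the other strand.

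Genes that make, move and break down acetylcholine were measured beside the receptors. All 7 were listed, 6 were tested, and 0 passed by genotype (median -0.25). Chat, which encodes the enzyme that makes acetylcholine, had 9.92 and 8.46 CPM in the TCRb-/- pools of experiments 1 and 2, and 15.8 and 11.2 CPM in the WT pools. Both TCRb-/- libraries lay below both WT libraries, as for 8.04% of all genes, with a difference of -0.50 (interval -1.06 to 0.06, limma adjusted p 1.00). With the block the Chat interval was -0.81 to -0.19, at a limma adjusted p of 0.848. Slc18a3, the vesicular acetylcholine transporter, which shares its locus with Chat, had 16.1 and 11.3 CPM against 16.6 and 14.3 CPM. Between experiments, Slc5a7, the choline transporter, fell by 0.79 (SE 0.17, adjusted p 0.0169), and Ache, acetylcholinesterase, rose by 0.45 (SE 0.08, adjusted p 0.00975). Prima1, which anchors acetylcholinesterase, Bche, Slc18a3 and Chat did not pass, and Colq was below the filter. The Slc5a7 call was lost without TCRb-/- replicate 1 or WT replicate 1.

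The list of nicotinic receptor chaperones and Ly6 family modulators held 10 symbols, of which Tmem35 and Tmem35a name the same gene, and 9 were listed and tested, with 0 called by genotype (median 0.04). Between experiments, 1 of the 9 rose and 2 fell, where 8.95% of all genes tested rose and 14.7% fell. These counts are not a result about the list. Ly6h rose by 0.49 (limma adjusted p 0.00885), Ly6g6e fell by 0.91 (0.0288) and Lynx1, a nicotinic receptor inhibitor, fell by 0.21 (0.0473, and 0.0558 with genotype as a further term). Lynx1 also lost its call under both other scalings and when each library in turn was left out, and Ly6g6e without WT replicate 1. Ric3, Tmem35 (the chaperone NACHO), Lypd1, Lypd6, Lypd6b and Ly6e did not pass.

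Muscarinic signalling genes numbered 20, all tested, with 0 called by genotype (median -0.08). Between experiments 10 fell and 1 rose (median -0.29), where 14.7% of all genes tested fell and 8.95% rose. The list was chosen with earlier results of these data known, so these counts are not a result about muscarinic signalling. On the Gq side, Plcb1 fell by 0.55, Itpr1, an inositol trisphosphate receptor, fell by 1.13, and Plcb4 rose by 0.53. Kcnq3 and Kcnq5, which encode subunits of potassium channels that M1 signalling closes, fell by 0.53 and 1.43. On the Gi/o side, Gnao1 fell by 0.32. Adcy5 and Gnal, the adenylyl cyclase and stimulatory G protein of striatal neurons, fell by 1.42 and 0.74, and the regulators Rgs4 and Rgs9 by 0.94 and 1.49. Limma adjusted p-values of these 11 ran from 0.00235 (Rgs4) to 0.0247 (Kcnq3). Single libraries decided the calls of Plcb1, Plcb4, Kcnq3 and Rgs9, which were each lost in at least 1 omission.

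Chrm1 had the highest SD of log2(CPM + 1) over the 4 libraries among the members, at 0.88, and Chrm4 had 0.88 as well. The 5 genes with the profile closest to Chrm1, by Euclidean distance of mean-centred log2(CPM + 1) over the 4 libraries, were Kcnq5 (0.0426), Kcnh4 (0.0954), Bcl11b (0.111), Adcy5 (0.129) and Gsg1l (0.135). Kcnq5 had 30.9 and 7.80 CPM in the TCRb-/- pools of experiments 1 and 2, and 30.03 and 14.6 CPM in the WT pools. Bcl11b, a transcription factor of striatal projection neurons, had 185, 48.2, 176 and 93.4 CPM in the same order. With 4 libraries such closeness is a description only.

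Markers of neighbouring regions moved between the experiments beside the receptors. Over all genes tested, 14.7% fell and 8.95% rose. Of the 16 striatum markers, 14 fell and 0 rose (median -1.21), of 12 cortex and hippocampus markers 8 fell and 1 rose (median -0.89), and of 10 thalamus markers 6 rose and 0 fell (median 0.96). Summed cortex and hippocampus levels were 644 and 359 CPM in the TCRb-/- pools of experiments 1 and 2, and 697 and 387 CPM in the WT pools, and summed thalamus levels were 390, 822, 389 and 524 CPM. Choroid plexus markers rose in 14 of 15 cases. Neuron markers were mixed, with 2 higher and 3 lower of 9 (median -0.06), and septum markers rose in 3 of 12 cases (5 of 12 with genotype as a further term; median 0.26). Of 7 medial habenula markers, 5 were listed and Pou4f1 was not among them. Their summed level was 206 and 112 CPM in TCRb-/- (experiments 1 and 2) and 220 and 172 CPM in WT, lowest in TCRb-/- replicate 2. Between experiments the 5 were mixed, and their median difference was 0.44, although their summed level was lower in experiment 2. Gng8 rose by 0.44 (limma adjusted p 0.0499) and Lmo3 fell by 1.00 (0.0174). Gpr151, Tac2 and Nwd2 differed by 0.79, 0.50 and -0.45 without passing. With genotype as a further term Gpr151 and Tac2 passed and Gng8 did not. No listed marker of these regions was at 0 in any library. Marker lists also differed between genotypes within an experiment, though limma without the block called 0 of these markers by genotype. Median log2 differences, TCRb-/- minus WT, within experiments 1 and 2 were 0.51 and 0.60 for choroid plexus and 0.17 and -1.12 for striatum. They were -0.13 and 0.78 for thalamus, -0.26 and -0.10 for cortex and hippocampus, and 0.18 and 0.09 for septum. The part of these tissue differences in the receptor values was not tested.

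**Figure D4:**
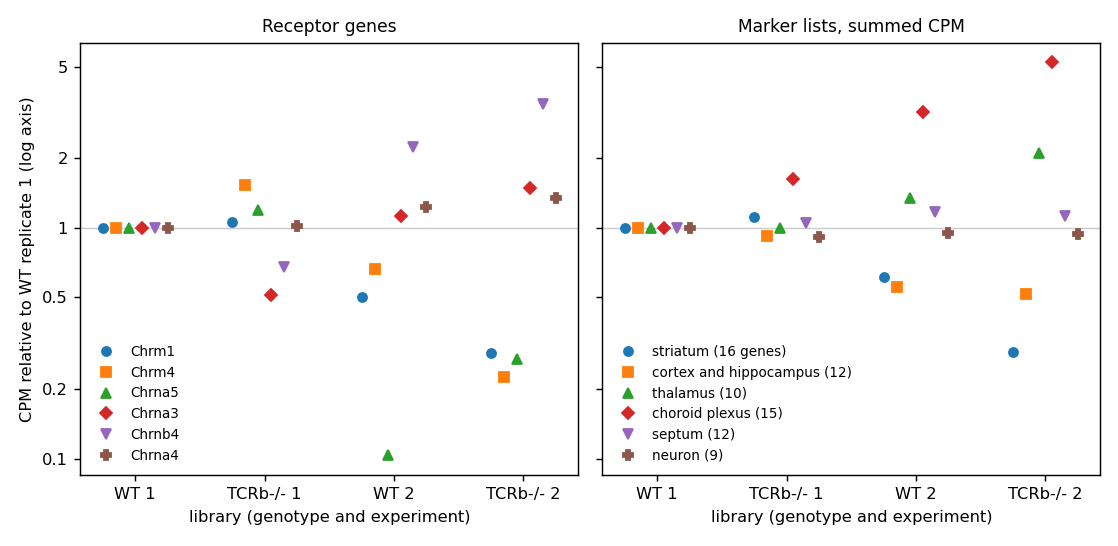
CPM of 6 receptor genes (left) and summed CPM of marker lists (right) in each library, relative to WT replicate 1 (log axis); each point is 1 library. Chrm1, Chrm4 and Chrna5 are below 1 in both libraries of experiment 2, as are the striatum and the cortex and hippocampus lists, while Chrnb4 and the thalamus and choroid plexus lists are above 1.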

How the data were processed

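The deposited files give, for 1 library each, log2 CPM values by gene symbol. Per the submitters' processing notes, the build was mm10 and the tools named were HISAT2 2.1.0, SAMtools 1.3, HTSeq 0.9.1, R 4.0.5 and limma 3.46.0, with no role given. Per the labels' protocols, RNA came from the cleared lysate of pooled tissue and was amplified with a SMARTer ultra-low kit. The annotation, the strand setting and the rule for keeping rows are named in no source used here.

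The deposited log2 values were solved for whole reads, which came out whole within 0.001 reads for 100% of values. Of the 15426 rows, 17 spike-in rows were left out. Reads were scaled to the library total (CPM) and transformed to log2(CPM + 1), which understates changes of low genes. Genes averaging at least 1 CPM were fitted in limma 3.58.1 (R 4.3.3; moderation with a trend, two-sided, Benjamini-Hochberg over 13912 genes, threshold 0.05), without a block. An exact permutation test of 2 libraries against 2 cannot go below p = 0.333. Replicates are pools, so no p-value measures the spread between mice. Without the block, the spread within a genotype is the difference between experiments, and that within an experiment is the difference between genotypes. A count of 0 allows 3 reads, or 0.114 to 0.150 CPM; counting intervals (95%, exact Clopper-Pearson, and conditional binomial for ratios) cover counting error only. Chrna5 was tested only without the filter.

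The replicate number is the experiment named in the labels, so it pairs the samples; deviations of same-numbered libraries correlated at 0.72 across genes. Exon lengths and positions are from GENCODE M21 and promoters from RefSeq. The fit was tested on simulated data. Alternatives were other pseudocounts, filters, scalings and weights, no trend, the block and the omission of each library; the block without a filter was added after the data were seen. The members and gene lists were chosen with earlier results of these data known. All members, other listed receptor, acetylcholine supply and nicotinic accessory genes were named, with called signalling genes (except 1 that is not reported here), the 5 profiles nearest to the most variable member, and up to 3 markers per list. Python 3.11.15 was used for the other steps.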

Additional observations from a re-analysis of the deposited data

Results flagged for a closer look

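The genotype difference had opposite signs in the 2 experiments for 4 members, which is why they are given again here. With 1 library per genotype in each experiment, this difference between experiments was not tested. On the log2(CPM + 1) scale, the difference in experiment 2 minus that in experiment 1 was -1.58 for Chrm4, from 0.54 in experiment 1 to -1.04 in experiment 2. It was -0.87 for Chrm1, from 0.09 to -0.78. For Chrna3 it was 0.85, from -0.57 to 0.29. For Chrm3 it was 0.0798, from a difference near 0 in experiment 1. Each of these contrasts uses all 4 libraries, and why the signs differ was not tested.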

How the results depend on the processing

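With all libraries kept, no member changed direction under any pseudocount, filter, scaling, weighting or block tried. By genotype, 0 genes passed in all of these fits, except 2 with the replicate block and 1 with the replicate block and no filter; no receptor gene was among them. The count between experiments was 629 when moderation had no trend; the cause was not tested. In that fit Chrm1 (limma adjusted p 0.0511), Chrm4 (0.0890) and Chrna4 (0.0706) lost their calls. The block changed no call among the members, the other receptor, acetylcholine supply and signalling genes. Elsewhere between experiments Lynx1 (adjusted p 0.0558) and Gng8 (0.0550) lost their calls, and Clic6, Gpr151, Ido1, Tac2, Wfs1, Zic2 and Zic5 gained one (0.00741 to 0.0476); by genotype Trbc2 and Ttr gained one. Leaving out 1 library leaves a lone sample in 1 group, assumed to vary like the others. These fits have no block, so genotype and experiment are partly mixed in them. Counts then ranged from 0 to 47 genes by genotype (47 without TCRb-/- replicate 1, 1 without TCRb-/- replicate 2) and from 1406 to 3390 between experiments (1406 without TCRb-/- replicate 1, 1823 without TCRb-/- replicate 2, 1637 without WT replicate 1). Member differences by genotype that changed sign ranged from -1.28 to 0.58 for Chrm1, -0.13 to 0.21 for Chrm3, -1.28 to 0.78 for Chrm4, -0.62 to 0.35 for Chrna3, -0.12 to 0.26 for Chrna4, -0.31 to 0.71 for Chrna5 and -0.63 to 0.055 for Chrna7. Between experiments only Chrm2 did, from -0.11 to 0.48. Depth limits Chrna5 most, with 3 reads in WT replicate 2. Without that library the Chrna5 difference between experiments was -0.84. Pseudocounts of 0.1 and 5 gave Chrna5 differences of -2.22 and -0.29 between experiments. Genes under 10 CPM have no value under the stricter filter, and Chrna5 has none with voom weights.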
